A study of Rattus norvegicus with 99 samples.

Results

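Fos, Fosb, Jun, Junb, Egr1, Atf3, Nr4a1, Ier2, Dusp1 and Btg2 are immediate early genes, and their mRNA levels were followed in 3 chambers of the rat heart, the right ventricle (RV), the left ventricle (LV) and the septum between them (Spt). They are 10 of the 17337 genes of the deposited whole-heart table and were taken by symbol. All 10 passed the filter on low counts in each table tested. Polyadenylated RNA was sequenced for 33 male rats, whose mothers were Wistar Kyoto and whose fathers were Lewis, with 1 library per chamber and 99 in all. The study set pulmonary artery banding (PAB), which loads the RV, and aortic banding (AOB), which loads the LV, against sham surgery, to follow hypertrophy and later failure of the loaded ventricle. A clip that did not constrict the vessel when it was placed tightened as the animal grew.

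Compensated hearts were taken 7 weeks after surgery at an age of 11 weeks, from 7 animals each with sham surgery (Sham-H), PAB (PAB-H) and AOB (AOB-H). Decompensated hearts with PAB (PAB-F, 3 animals) and their shams (Sham-RF, 2 animals) were taken at 27 weeks of age, 21 weeks after surgery. Decompensated hearts with AOB (AOB-F, 4 animals) and their shams (Sham-LF, 3 animals) were taken at 30 weeks of age, 24 weeks after surgery. Every animal, shams included, went through surgery, and Sham-RF rests on 2 animals.

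Library names fall into 3 series. Series 1, 2 and 3 each held LV and RV libraries of the compensated groups, all LV and RV libraries of the older groups were in series 2, and all their Spt libraries were in series 3. Among the compensated groups, 2 Spt libraries of each group were in series 2 and 5 in series 3. Library series and stage therefore cannot be told apart fully, although both ventricles of an older animal shared 1 series.

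A few labels were at odds with each other or with the data. RV samples carry the left ventricle as their tissue, a description of 1 Sham-LF sample names the other group of older shams, and the study's sample sheet exchanges the Spt columns of AOB-F animals 1 and 2. In 3 animals (AOB-H 1, PAB-H 2 and Sham-H 6) the 50 genes that best separated RV from LV ran opposite to the labels, with a mean signed log2 difference of -0.66 to -0.49 against 0.26 to 0.94 in the other 30 animals. Agreement between chambers, the comparison of chambers, and the LV and RV differences from Sham-H are given with and without them.

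Immediate early genes are switched on within minutes of a stimulus, without new protein synthesis, when kinase cascades phosphorylate transcription factors that already sit on their promoters, among them SRF with its ternary complex partners and CREB. Their mRNAs are short-lived, so their levels follow recent stimuli. In the heart they are known to respond to stretch, catecholamines, ischemia and the handling of tissue. The products are transcription factors of the AP-1 family (Fos, Fosb, Jun, Junb and the related Atf3), the zinc finger factor Egr1, the orphan nuclear receptor Nr4a1, the nuclear regulator Ier2, and the feedback genes Dusp1, a phosphatase that switches off MAP kinases, and Btg2, an antiproliferative adaptor of mRNA deadenylation.

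Promoters are shown for 4 members whose levels moved closely together between animals: Junb, Ier2, Dusp1 and Btg2. RefSeq sequences of the GRCr8 build were found for 7 of the 10 members. Each line holds the 250 bases before the start of the gene, with 4 motifs, searched on both strands, in capitals. They are TGACG, the full cyclic AMP response element TGACGTCA, the CCAAT box and the TATA box TATAAA. TGACGTCA holds TGACG on either strand, so these matches overlap. The windows lie at chr19:40080876-40081125 (plus strand) for Junb, chr19:40399123-40399372 (plus strand) for Ier2, chr10:17184603-17184852 (plus strand) for Dusp1 and chr13:48087691-48087940 (minus strand) for Btg2.
Junb: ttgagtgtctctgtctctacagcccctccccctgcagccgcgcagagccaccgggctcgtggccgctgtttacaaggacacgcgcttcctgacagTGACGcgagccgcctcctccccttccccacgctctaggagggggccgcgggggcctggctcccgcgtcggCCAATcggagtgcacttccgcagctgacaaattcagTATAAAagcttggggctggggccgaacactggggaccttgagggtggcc
Ier2: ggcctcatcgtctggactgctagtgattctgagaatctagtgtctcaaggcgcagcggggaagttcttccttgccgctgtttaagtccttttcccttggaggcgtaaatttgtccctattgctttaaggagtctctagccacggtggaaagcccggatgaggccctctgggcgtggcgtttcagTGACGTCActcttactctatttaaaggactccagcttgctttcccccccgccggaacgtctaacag
Dusp1: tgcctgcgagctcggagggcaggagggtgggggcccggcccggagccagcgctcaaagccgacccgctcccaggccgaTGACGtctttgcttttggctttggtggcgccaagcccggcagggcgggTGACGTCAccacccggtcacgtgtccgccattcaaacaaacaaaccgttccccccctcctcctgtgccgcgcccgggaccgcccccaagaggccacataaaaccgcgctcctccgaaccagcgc
Btg2: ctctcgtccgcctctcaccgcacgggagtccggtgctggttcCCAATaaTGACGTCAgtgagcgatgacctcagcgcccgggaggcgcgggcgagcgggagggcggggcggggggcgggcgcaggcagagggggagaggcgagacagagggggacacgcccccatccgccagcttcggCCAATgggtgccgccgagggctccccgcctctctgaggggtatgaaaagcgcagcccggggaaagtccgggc

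The letters TGACGTCA began 66 bases before the start of Ier2, 124 before that of Dusp1 and 201 before that of Btg2, and stood in 1.83% of all 33469 promoters of 300 bases. TGACG was in 6 of the 7 promoters, all but that of Fosb, and in 21.2% of all promoters. The CArG box, the letters bound by SRF, was found in the promoter of Egr1 alone, with 2 matches, against 1.64% of all promoters. TATAAA was in those of Fosb and Junb (14.2% of all), CCAAT in those of Junb, Egr1 and Btg2 (37.5%) and GGGCGG in those of Nr4a1, Dusp1 and Btg2 (33.1%). TGANTCA, the AP-1 letters, was in none of the 7 (7.33% of all). A match only says that the letters stand in the window.

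Library totals ran from 12057180 to 24197244 assigned reads with a median of 17391374, and the members' counts in a library ran from 8 for Fosb to 7988 for Dusp1. Gene levels are in CPM, which divides a count by the TMM-scaled size of its library, on 1 scale over the 99 libraries. On the deposited FPKM scale, which divides by gene length and so allows genes to be compared, Dusp1 had the highest median level (91.1), followed by Jun (52.3), Ier2 (44.96), Btg2 (36.0) and Junb (28.5). Egr1 (8.11), Nr4a1 (6.53), Atf3 (5.34) and Fos (3.75) were lower, and Fosb (0.547) was lowest. In CPM, Egr1 spread most widely, from 2.63 to 71.7 with a median of 12.5, and Fos ran from 1.77 to 25.5 around a median of 5.97. Jun varied little, from 108 to 254 around 163, and Btg2 ran from 63.4 to 173 around 92.2. The remaining members ran from 33.4 to 130 (Junb), 43.2 to 159 (Ier2), 109 to 482 (Dusp1), 8.35 to 62.0 (Nr4a1), 4.52 to 18.7 (Atf3) and 0.542 to 8.21 CPM (Fosb).

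The members stood high or low together in a given heart. Averaged over the 10 genes and the 3 chambers, animal 1 of Sham-RF was 1.02 log2 units above the chamber means, the highest of 33 animals, and was highest for 7 of the 10 members. Animal 7 of PAB-H (0.64), animal 2 of Sham-H (0.62) and animal 2 of Sham-RF (0.59) came next. The lowest was animal 7 of AOB-H at -0.60. Over the 99 libraries, all 45 pairs of members had a correlation of log2 CPM above 0 once chamber means were removed, from 0.18 (Fosb with Jun) to 0.85 (Junb with Dusp1), with a median of 0.58. Ier2 with Dusp1 reached 0.85 and Junb with Ier2 0.84. Condition means were not removed, so the Sham-RF libraries enter these values, and their high level was known when the members were chosen. The values also share libraries and animals and are given as a description. Dusp1 and Junb had the highest mean correlation with the other members (0.67 each) and Fosb, the gene with the fewest reads, the lowest (0.35).

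**Figure D1:**
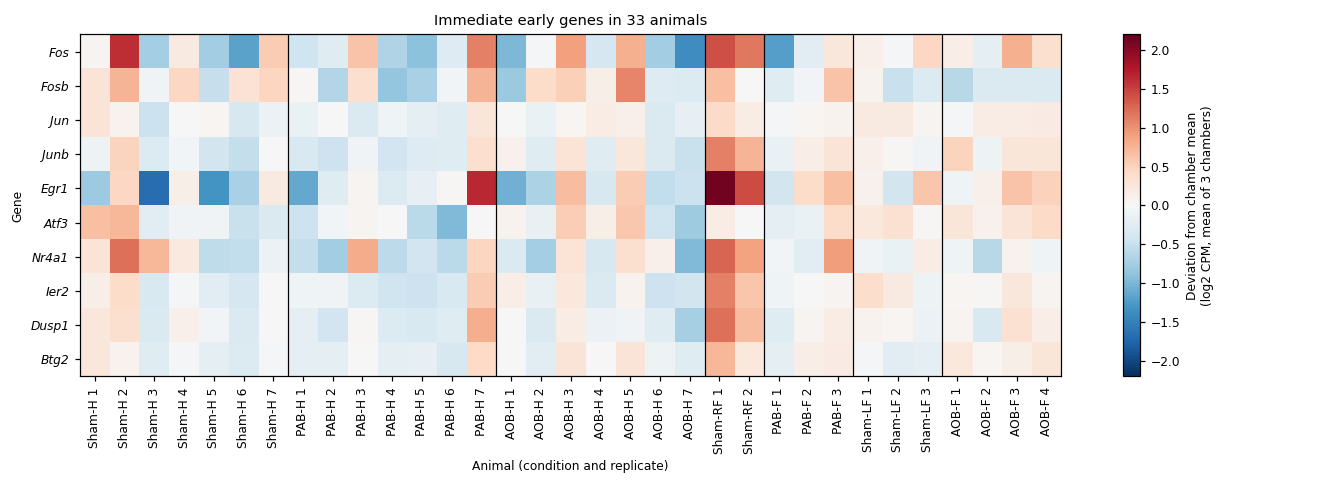
Deviation of each immediate early gene from its chamber mean (log2 CPM, mean of 3 chambers, colour) in 33 animals (columns, ordered by condition). Both Sham-RF animals (mean deviations 1.02 and 0.59), PAB-H 7 (0.64) and Sham-H 2 (0.62) stand high in most rows, while Atf3 and Fosb depart from the other rows in several animals.

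To ask whether the level of a member belonged to the animal or to the dissected piece, chambers of the same animals were compared after the mean of each condition had been removed. With n = 33 animals, LV and RV deviations had a median Pearson r of 0.736 over the 10 members (0.492 for Btg2 to 0.865 for Dusp1) and a median Spearman rho of 0.711. All 10 passed a two-sided permutation test of animals within condition after adjustment over all genes tested. The same test passed 50.7% of the 11924 genes, whose median r was 0.443. LV and RV libraries of an animal also shared a library series, and with series means removed as well the medians were 0.664 for the members and 0.1997 for all genes.

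LV and septum gave a different background. The members' median r was 0.707 and their median rho 0.673, against a median r of 0.074 over all genes, of which 0.495% passed. Dusp1 had r = 0.84 and rho = 0.77 (permutation p = 1e-05 for each, the smallest that 100000 permutations can give, adjusted p = 0.00628) and stood in place 12 of 11924 genes. Fos (r = 0.78, rho = 0.79, adjusted permutation p = 0.0183), Btg2 (0.77, 0.70, 0.0149), Nr4a1 (0.76, 0.79, 0.0192) and Atf3 (0.75, 0.75, 0.00628) also passed. Jun (r = 0.66, permutation p = 0.00092), Egr1 (0.65, 0.00046), Junb (0.62, 0.00141) and Ier2 (0.45, 0.0278) had an unadjusted p under 0.05, with adjusted p of 0.0683 to 0.469. Fosb had r = 0.34 (permutation p = 0.0505).

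Septum and RV agreed less. The median r was 0.536 and the median rho 0.545, against 0.084 over all genes, of which 0.444% passed. Dusp1 (r = 0.70, rho = 0.66, adjusted permutation p = 0.0462) and Nr4a1 (0.70, 0.65, 0.0434) passed. The other members had r from 0.28 (Fosb, permutation p = 0.138) to 0.66 (Fos, permutation p = 0.00063, adjusted p = 0.0916), and all but Fosb had an unadjusted permutation p under 0.05. In all, 30 such relations were computed for the members.

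Without the 2 Sham-RF animals the medians were 0.731, 0.7105 and 0.533 for LV with RV, LV with Spt and Spt with RV, and without the 3 animals with opposite ventricles they were 0.738, 0.724 and 0.560. With the Spt columns of AOB-F 1 and 2 exchanged, the medians that include Spt were 0.678 and 0.547. Within library series 2 of the LV, which held 21 animals, the members' medians were lower at 0.592, 0.533 and 0.351, against 0.296, 0.073 and 0.090 over all genes. When the 2 animals farthest from the median were left out of each relation, Jun no longer held between LV and RV (r = 0.36, permutation p = 0.0909, without Sham-H 3 and PAB-H 7). Junb (r = 0.42, permutation p = 0.051) and Ier2 (r = 0.15, permutation p = 0.519) no longer held between LV and Spt without Sham-H 2 and PAB-H 7, so these 3 relations rest on those animals.

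**Figure D2:**
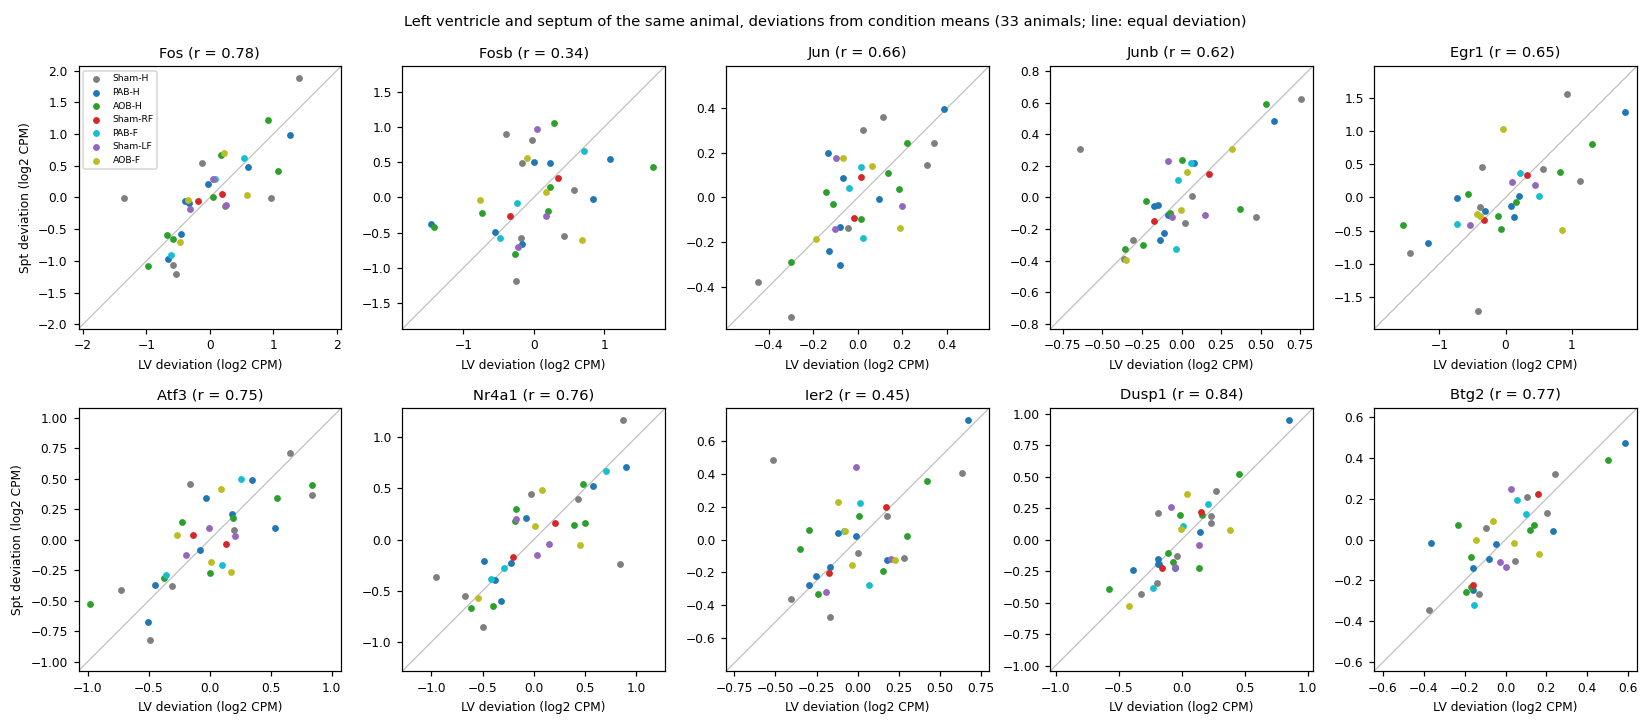
Deviation from the condition mean in LV (x axis) and Spt (y axis), both in log2 CPM, for each immediate early gene, with 1 point per animal (33 animals, colours are conditions) and a line of equal deviation. Points lie along the line for Dusp1 (r = 0.84) and Fos (0.78) and scatter for Ier2 (0.45) and Fosb (0.34).

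The mean of each condition in each chamber was removed, and the remaining variance was split between and within animals. Series means were not removed, and LV and RV libraries of an animal shared a series. Within conditions, 79.5% of the variance of Dusp1 lay between animals rather than between chambers of an animal, which put it in place 13 of 11924 genes. Nr4a1 (71.8%, place 25), Fos (71.8%, place 26), Egr1 (67.6%, place 39), Atf3 (65.3%) and Junb (61.6%) followed. Btg2 (60.4%), Jun (57.4%) and Ier2 (56.2%) were close behind and Fosb was lowest at 38.8% (place 1367). The members' median was 63.5% against 21.4% over all genes, which had an interquartile range of 10.8% to 31.3%. The standard deviation between animals had a median of 0.33 log2 units over the members and 0.10 over all genes, while that within animals was 0.24 and 0.21.

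**Figure D3:**
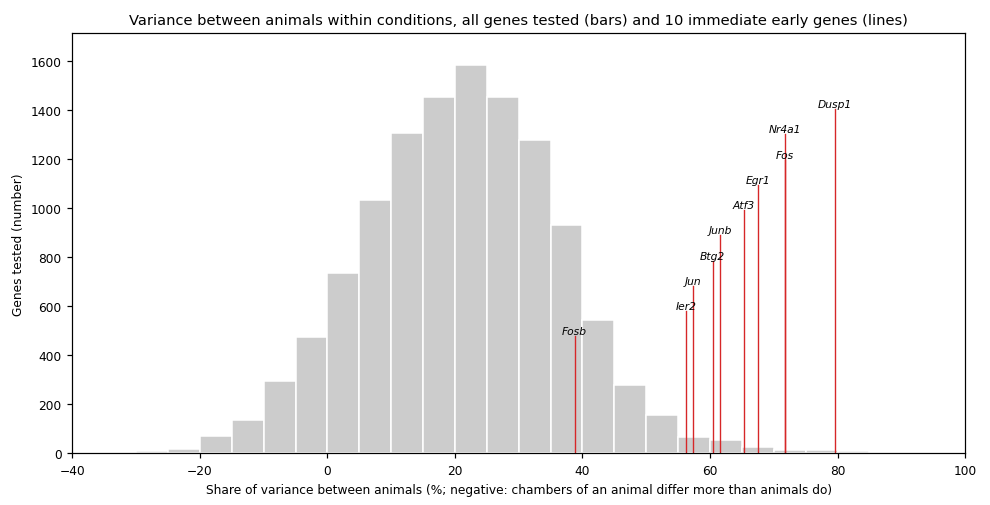
Share of variance within conditions that lies between animals (x axis, %), as a histogram of the 11924 genes tested (y axis, number of genes), with a vertical line for each of the 10 immediate early genes. The members run from 38.8% (Fosb) to 79.5% (Dusp1), and the median of all genes is 21.4%. Condition means of each chamber were removed, and series means were not.

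Both Sham-RF animals, at 27 weeks, stood high, which was known when the members were chosen. Junb, an AP-1 subunit that dimerizes with Fos proteins, was at 117 and 91.5 CPM in LV, 99.8 and 81.4 in Spt and 130 and 93.7 in RV of Sham-RF animals 1 and 2. In Sham-H it ran from 33.4 through a median of 52.9 to 87.9 in LV, from 34.0 through 40.8 to 68.5 in Spt, and from 34.9 through 48.5 to 69.1 in RV. The 2 groups did not overlap in any chamber.

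Egr1, a factor induced through SRF, was at 71.7 and 45.4 CPM in LV, 50.6 and 31.4 in Spt and 65.2 and 39.7 in RV of Sham-RF. Sham-H libraries reached at most 26.6, 26.4 and 19.6 CPM in these chambers, with medians of 9.43, 10.6 and 8.49. The Sham-RF libraries of Egr1 were therefore all above those of Sham-H.

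Dusp1 was at 405 and 327 CPM in LV, 413 and 304 in Spt and 482 and 267 in RV of Sham-RF, and Sham-H ran from 158 to 238, 128 to 226 and 140 to 247. Ier2 was at 146 and 115, 142 and 108, and 159 and 96.2 CPM, and Sham-H ran from 49.8 to 110, 47.4 to 92.1 and 43.2 to 81.5. Neither gene overlapped between the groups, and animal 1 of Sham-RF was the higher of the pair for both genes in each chamber.

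Btg2 was at 151 and 121 CPM in LV, 150 and 110 in Spt and 173 and 106 in RV of Sham-RF, against ranges of 72.5 to 111, 76.5 to 122 and 65.1 to 105 in Sham-H. The groups overlapped in Spt alone. Fos was at 15.6 and 12.0, 13.5 and 12.3, and 25.5 and 21.3 CPM, and Sham-H reached 19.9, 19.0 and 22.0 CPM in these chambers around medians of 6.80, 5.03 and 5.61. The groups overlapped for Fos in each chamber, and animal 2 of Sham-H held the highest of its values.

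Nr4a1 was at 41.1 and 30.9 CPM in LV, 37.3 and 29.7 in Spt and 62.0 and 45.1 in RV of Sham-RF, where Sham-H reached 43.0, 40.8 and 47.9 CPM. Jun was at 209 and 205, 228 and 201, and 222 and 149 CPM, above the Sham-H range of 116 to 201 in LV and overlapping it in Spt and RV. Atf3, a factor of the stress response, was at 11.3 and 9.33, 9.66 and 10.1, and 12.9 and 10.3 CPM, and Fosb at 2.94 and 1.79, 2.49 and 1.68, and 3.24 and 1.80 CPM. Both lay within the Sham-H range in each chamber.

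**Figure D4:**
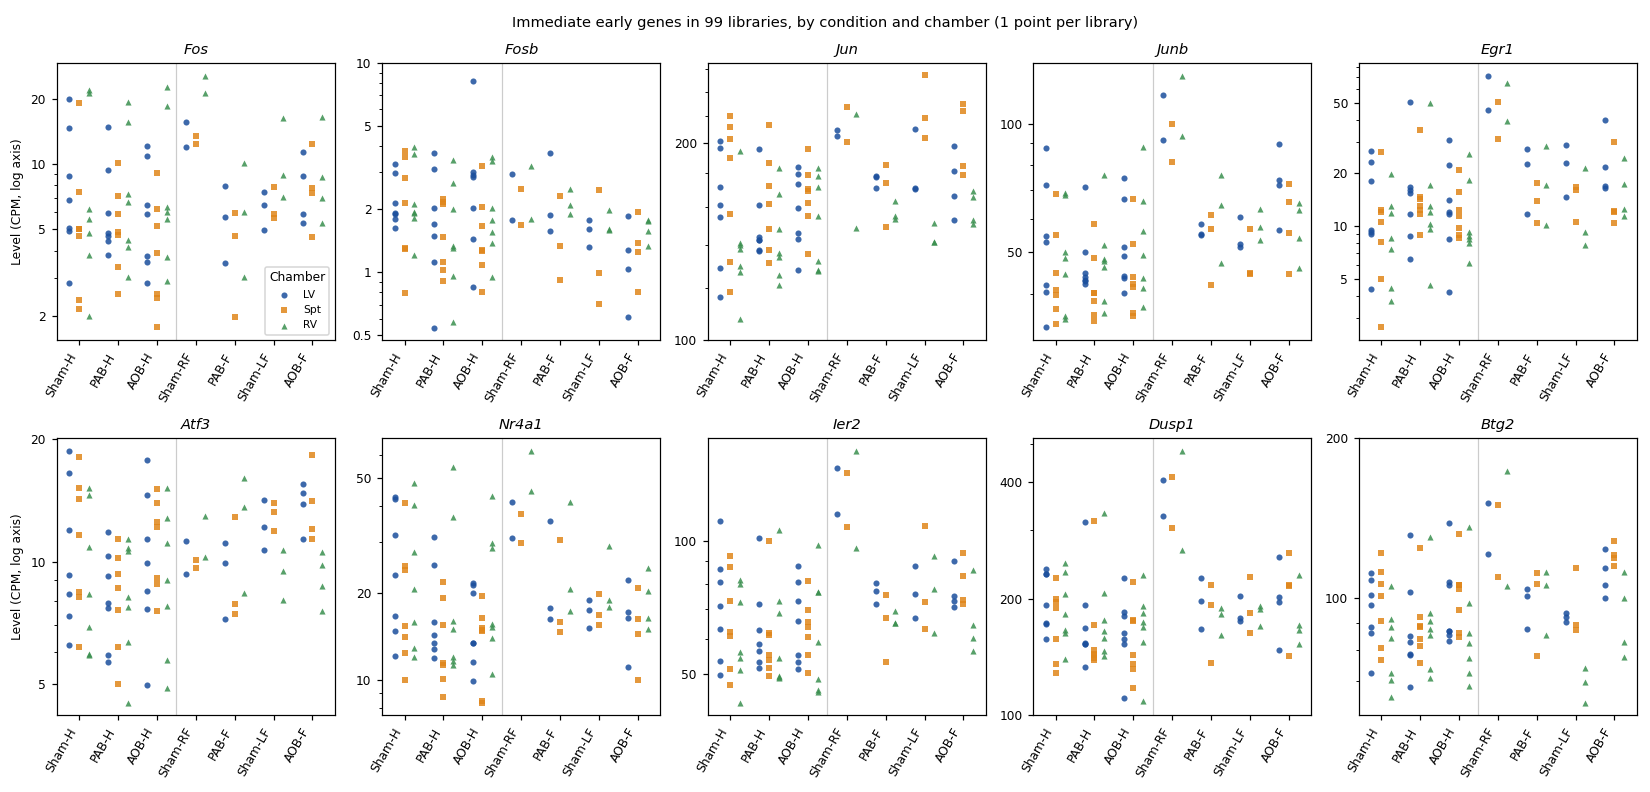
Level of each immediate early gene (y axis, CPM, log axis) in 99 libraries by condition (x axis) and chamber (colour and marker), with 1 point per library. The 6 Sham-RF libraries of Junb (81.4 to 130 CPM), Egr1 (31.4 to 71.7 CPM) and Dusp1 (267 to 482 CPM) lie above all Sham-H libraries of the same chamber, and those of Atf3 do not.

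This difference was tested on counts summed over the 3 chambers of an animal, with the animal as the replicate. Since the high level of Sham-RF was known beforehand, no test that uses Sham-RF is independent evidence of it. Junb was higher in Sham-RF than in Sham-H by 1.02 log2 units (SE 0.21, 2.03-fold, edgeR adjusted p = 0.0296, 2 and 7 animals) and was the 1 member called. In this comparison 15 of 12379 genes, or 0.121%, were called. Ier2 (0.91, SE 0.20), Egr1 (2.09, SE 0.48) and Dusp1 (0.94, SE 0.22) had edgeR adjusted p of 0.0767, 0.0849 and 0.0985, and Btg2 (0.54, SE 0.16) of 0.221. Fos (0.98, SE 0.56), Nr4a1 (0.75, SE 0.40), Jun (0.34, SE 0.14), Fosb (0.02, SE 0.40) and Atf3 (-0.03, SE 0.31) did not pass either. The members' median was 0.83, against -0.007 over all genes, and 6 of the 10 had an unadjusted p under 0.05 (Junb, Ier2, Egr1, Dusp1, Btg2 and Jun), against 9.94% of all genes. Junb, Egr1, Ier2 and Dusp1 did not overlap between the groups, in a comparison where 7.25% of all genes were higher without overlap.

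The call of Junb did not hold in several other fits, most of which gave a difference of like size. Without animal 1 of Sham-RF the difference was 0.84 (edgeR adjusted p = 1.00) and without animal 2 it was 1.19 (adjusted p = 0.164). Either fit leaves 1 Sham-RF animal, which is assumed to vary like the animals of the other groups. Without Sham-H 1, 3, 4, 5 or 6 the difference was 0.97 to 1.04 with an adjusted p of 0.0527 to 0.0804. A fit of these 2 groups alone gave 1.03 and an adjusted p of 0.193, while DESeq2 called 3 members (Junb, Ier2 and Dusp1) and 34 of 15119 genes, or 0.225%.

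In single chambers edgeR called no member between Sham-RF and Sham-H. The median difference over the members was 0.56 in LV, 0.79 in Spt and 1.01 in RV, and the smallest adjusted p was 0.56, 0.37 and 0.24, where 0.0256%, 0% and 0% of all genes were called. DESeq2 called no member in any chamber. At an unadjusted p under 0.05 edgeR counted 6, 5 and 7 members, against 4.53%, 5.77% and 6.08% of all genes. Without overlap, 6 members were higher in LV (4.39% of all genes), 5 in RV (4.89%) and 4 in Spt (3.35%). Whether the difference was larger in RV than in LV was tested as an interaction. All 10 estimates were above 0, with a median of 0.20, none of the 10 was called (0% of all genes), and Nr4a1 (0.65, SE 0.35) and Fos (0.88, SE 0.48) had the largest. Without the 3 animals with opposite ventricles no member was called in LV or RV, the medians were 0.48 and 0.94, and 5 and 6 members had an unadjusted p under 0.05. The median of the interaction was then 0.24, with all 10 estimates above 0 and none called. Without Sham-H 6 the highest Sham-H values in LV and RV were as above for all 10 members, so that 6 members in LV and 5 in RV still lay above them, while Fosb of Sham-RF 2 in LV fell just below the Sham-H range (1.79 against 1.80 CPM).

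Sham-LF, the other older shams, lay closer to Sham-H. Junb was at 51.4, 60.4 and 52.5 CPM in LV of the 3 animals, Egr1 at 22.7, 14.5 and 28.8, and Dusp1 at 175, 203 and 178. These lay within the Sham-H range, except Egr1 in animal 3. In Spt, Jun was at 254, 219 and 204 CPM, near the 228 and 201 of Sham-RF, and the first of these was the highest Jun value of all 99 libraries. Ier2 reached 108 CPM in Spt and 92.1 in RV of Sham-LF, where Sham-H reached 92.1 and 81.5. Summed over chambers, edgeR called no member between Sham-LF and Sham-H (1.16% of all genes), none had an unadjusted p under 0.05 (13.6%), DESeq2 called none, and the median was 0.05. Per chamber no member was called either, where 0.00854% (LV), 1.73% (Spt) and 0.0682% (RV) of all genes were. Jun in Spt (0.37, SE 0.15, edgeR adjusted p = 0.199) had an unadjusted p under 0.05 (17.9% of all genes), and no member had one in LV (5.25%) or RV (10.6%). The medians were -0.03 in LV and 0.005 in RV, and -0.08 and -0.04 without the 3 animals with opposite ventricles. Summed over chambers, Sham-RF against Sham-LF, 3 weeks apart in age, had a median of 0.80 and 7 members higher without overlap (Fos, Junb, Egr1, Nr4a1, Ier2, Dusp1 and Btg2), against 13.1% of all genes. Here 6 members had an unadjusted p under 0.05 (3.7% of all genes), and edgeR and DESeq2 called none of the 10 after adjustment (0% of all genes by edgeR, summed and in each chamber).

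Ordered by the mean over chambers, Sham-RF came first of the 7 conditions for 9 members and in place 4 for Atf3, for which AOB-F was first. For Junb the Sham-RF mean was 102 ± 18.8 CPM (SD, n = 2), against 63.1 ± 10.7 in AOB-F (n = 4), 57.4 ± 8.68 in PAB-F (n = 3), 53.8 ± 3.53 in Sham-LF (n = 3), 50.9 ± 11.7 in AOB-H, 50.2 ± 12.6 in Sham-H and 46.6 ± 10.3 in PAB-H (n = 7 each). For Dusp1 it was 366 ± 95.03 CPM, and the other 6 means lay between 166 ± 31.0 (AOB-H) and 196 ± 36.5 (AOB-F). Sham-RF did not overlap the condition next in order for Fos, Junb, Egr1, Ier2 and Dusp1, and did for Fosb, Jun, Nr4a1 and Btg2. All other neighbours in the order overlapped. Junb and Ier2 of Sham-RF lay above every animal of the other 6 conditions, while single animals of a condition lower in the order reached the lower Sham-RF animal for Egr1 (38.8 CPM, PAB-H up to 45.5), Dusp1 (299, PAB-H up to 321) and Fos (15.2, Sham-H up to 20.3).

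Other measures also differed between Sham-RF and Sham-H. The 8 leukocyte markers all had estimates above 0, with a median of 0.37 and none called, and their summed level was 278 to 302 CPM in LV against 153 to 244, 216 to 222 in RV against 158 to 193, and 181 to 212 in Spt against 151 to 239. The 5 endothelial markers summed to 1189 to 1208 CPM in RV against 720 to 1056, with overlap in LV (1015 to 1123 against 769 to 1061) and Spt (1074 to 1161 against 678 to 1107). Their median was 0.14 with 4 of 5 above 0, and the von Willebrand factor gene Vwf, named here after its values were seen, was called (0.63, edgeR adjusted p = 0.0224). The 3 atrial markers had a median of -3.56 with none called, and their summed levels overlapped in each chamber, at 10.4 to 20.9 CPM in LV against 19.6 to 1719, 7.47 to 12.0 in Spt against 5.10 to 435, and 13.8 to 49.5 in RV against 5.89 to 979. The 7 cardiomyocyte markers, which are defining for this tissue and abundant in every library, had a median of 0.004 with 4 of 7 above 0. In bulk tissue fewer cells of a type and less RNA per cell cannot be told apart. The part of these differences in the members' levels was not tested.

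Because Sham-RF is the matched control of PAB-F, its level, known when the members were chosen, enters the PAB contrast. Dusp1 was at 167, 197 and 226 CPM in LV, 136, 192 and 216 in Spt and 161, 189 and 182 in RV of the 3 PAB-F animals. Junb was at 54.8, 55.4 and 58.4 in LV, 41.9, 56.9 and 61.1 in Spt and 47.3, 64.7 and 75.9 in RV. Egr1 was at 11.6, 27.4 and 22.6, 10.3, 13.8 and 17.6, and 10.1, 17.0 and 28.4 CPM. All of these were below both Sham-RF animals in the same chamber.

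Summed over chambers, the members' median difference of PAB-F from Sham-RF was -0.80. Dusp1 (-0.97, SE 0.27), Ier2 (-0.87, SE 0.24), Junb (-0.82, SE 0.25), Egr1 (-1.51, SE 0.60), Fos (-1.58, SE 0.67) and Btg2 (-0.43, SE 0.19) had an unadjusted p under 0.05 by edgeR, against 5.42% of all genes. Nr4a1 (-0.78, SE 0.48), Jun (-0.26, SE 0.16), Fosb (-0.19, SE 0.45) and Atf3 (0.00036, SE 0.35) did not. None was called by edgeR after adjustment (smallest adjusted p 0.733, for Dusp1), where 0.00808% of all genes were, nor by DESeq2. Lower without overlap were 7 members (Fos, Jun, Junb, Egr1, Ier2, Dusp1 and Btg2), in a comparison of 3 against 2 animals where 21.3% of all genes were.

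Per chamber, 7 members were lower without overlap in LV (11% of all genes), 6 in Spt (21.3%) and 6 in RV (18.5%). In each chamber 5 members had an unadjusted p under 0.05, against 8.37% of all genes in RV, 4.14% in Spt and 1.04% in LV, and edgeR called no member and no other gene (0%). DESeq2 also called no member in any chamber. A fit of the Spt libraries of these 2 conditions alone called 5 members (Fos, Junb, Egr1, Ier2 and Dusp1) as lower in PAB-F, along with 792 of 11154 genes, or 7.1%. The difference between RV, the loaded ventricle, and LV was not called for any member as an interaction (0% of all genes), with estimates from -0.67 for Fos to 0.24 for Atf3.

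With Sham-LF as the reference and counts summed over chambers the members' median lay close to 0. The median difference of PAB-F from Sham-LF was 0.034, with 5 members above and 5 below 0. Dusp1 was at -0.02 (SE 0.24), Junb at 0.09 (SE 0.23), Egr1 at 0.09 (SE 0.55) and Ier2 at -0.18 (SE 0.22). In the sum, none had an unadjusted p under 0.05 by edgeR (7.97% of all genes), none was called (0%), and none was without overlap in either direction (6.95% of all genes were higher and 7.25% lower). In RV, the loaded ventricle, the median was 0.20, and Btg2, at 85.3, 106 and 112 CPM in PAB-F and 74.1, 63.4 and 69.7 in Sham-LF, had an unadjusted p under 0.05 (0.55, SE 0.23, edgeR adjusted p = 0.236, 18% of all genes under that limit). Btg2 and Jun (0.12, SE 0.17) were higher without overlap in RV (12.3% of all genes). In Spt the median was -0.08, and Jun, at 149, 174 and 185 CPM against 254, 219 and 204, was lower without overlap (7.13% of all genes) and had an unadjusted p under 0.05 (-0.43, SE 0.19, adjusted p = 0.482, 9.5% of all genes under that limit). In LV the median was 0.02 and no member had an unadjusted p under 0.05 (1.34%). With both groups of older shams pooled the median of the sum was -0.24. PAB-F and Sham-LF were 3 weeks apart in age, so age and reference changed together.

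Against its own shams, Sham-LF, AOB-F had a median of 0.09 over the members and no member was called by edgeR or DESeq2, where edgeR called 4.7% of all genes. Btg2, at 124, 100, 114 and 106 CPM in LV of AOB-F and 93.7, 92.2 and 90.3 in Sham-LF, was higher without overlap in LV, Spt, RV and their sum (5.91%, 5.26%, 5.33% and 9.29% of all genes). Its difference in the sum was 0.33 (SE 0.16, edgeR adjusted p = 0.238), and it was the 1 member with an unadjusted p under 0.05 there, against 20.6% of all genes. Single chambers gave no call of a member, with 0% of all genes called in RV, 0.232% in Spt and 0.837% in LV.

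Against Sham-RF, the median of AOB-F was -0.73. Dusp1 was called as lower (-0.87, SE 0.25, edgeR adjusted p = 0.0491), where 2.99% of all genes were called, and 7 members were lower without overlap (Fos, Fosb, Junb, Egr1, Nr4a1, Ier2 and Dusp1), as were 19.3% of all genes. With both groups of older shams pooled the median was -0.31. These contrasts share their sham animals with the comparisons above, so they are not independent of them.

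**Figure D5:**
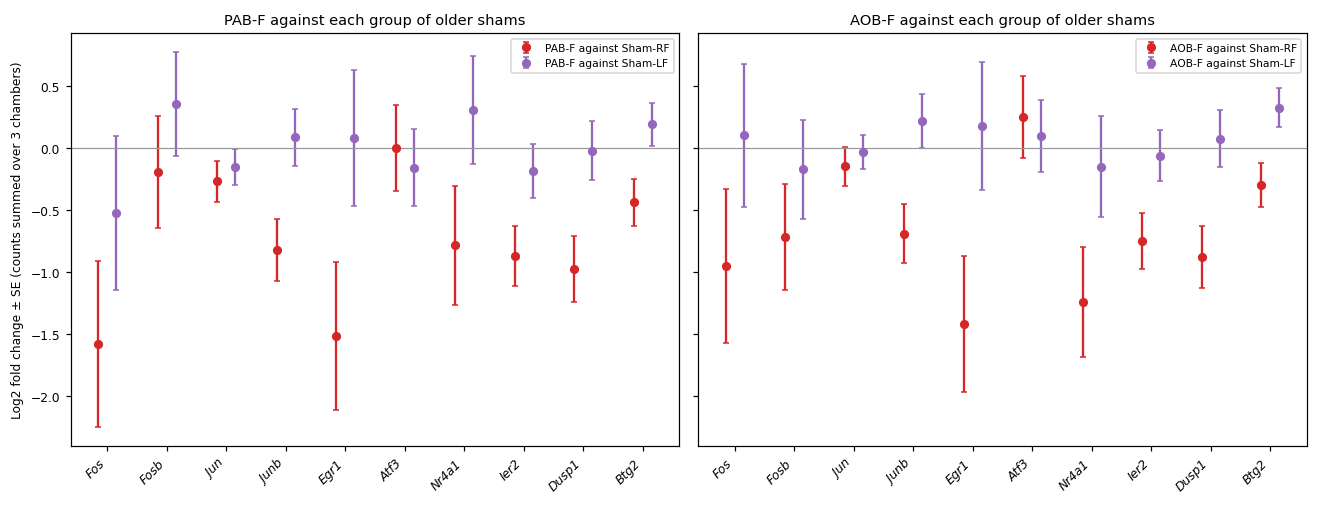
Log2 fold change ± SE (y axis, counts summed over 3 chambers) of each immediate early gene (x axis) in PAB-F (left panel, 3 animals) and AOB-F (right panel, 4 animals), against Sham-RF (2 animals) and against Sham-LF (3 animals). Against Sham-RF the medians are -0.80 and -0.73, and against Sham-LF they are 0.034 and 0.09.

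At the compensated stage, with 7 animals a group, neither banding was called for any member. Summed over chambers the medians were -0.08 for PAB-H and -0.03 for AOB-H against Sham-H, and the largest estimate in size was 0.52 for Egr1 in PAB-H (SE 0.36). EdgeR called none of the 10 (0% of all genes), none had an unadjusted p under 0.05 (3.51% of all genes for PAB-H and 6.55% for AOB-H), and DESeq2 called none. In single chambers no member was called either by edgeR (0% of all genes in each) or DESeq2. An unadjusted p under 0.05 by edgeR was reached in PAB-H by Atf3 (-0.49, SE 0.21) and Nr4a1 (-0.54, SE 0.26) in Spt (4.44% of all genes), and by no member in LV (4.72%) or RV (1.26%). In AOB-H it was reached by Nr4a1 in LV (-0.72, SE 0.28, 4.54% of all genes) and Spt (-0.54, SE 0.26, 15.9%), and by no member in RV (0.937%). The members' medians were -0.17 (PAB-H) and -0.06 (AOB-H) in LV and -0.02 and 0.03 in RV, and without the 3 animals with opposite ventricles they were -0.17, -0.12, -0.04 and -0.09, again with no member called. Spread within these groups was wide, and Fos in RV of Sham-H ran from 1.99 to 22.0 CPM, of PAB-H from 3.01 to 19.2 and of AOB-H from 2.91 to 22.5.

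The effect of banding was also compared between stages, as the difference of the older contrast from the younger one. For PAB the members' median was -0.57. Egr1 (-2.03, SE 0.70), Dusp1 (-0.91, SE 0.31), Ier2 (-0.79, SE 0.28) and Junb (-0.73, SE 0.29) had an unadjusted p under 0.05, against 1.32% of all genes, and none was called by edgeR (0%) or DESeq2. For AOB the median was 0.16, no member had an unadjusted p under 0.05 (7.2% of all genes), and none was called by edgeR (0%) or DESeq2.

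Levels were also compared between chambers of the same animals, where many genes of the table differed. With animal as a block, 5 members were called between RV and LV, where 37.6% of all genes were. Fos (0.28, SE 0.11, edgeR adjusted p = 0.0359) and Nr4a1 (0.22, SE 0.08, adjusted p = 0.0160) were higher in RV, and Egr1 (-0.35, SE 0.10, adjusted p = 0.00460), Jun (-0.14, SE 0.04, adjusted p = 0.00317) and Btg2 (-0.14, SE 0.04, adjusted p = 0.00760) were lower. Fos had a median of 6.66 CPM over the 33 RV libraries, 5.97 in LV and 5.21 in Spt, and Egr1 of 11.9, 16.4 and 12.3. Without the 3 animals with opposite ventricles 6 members were called, in a fit for which the share of all genes is not given.

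All older animals, and animals 1 to 4 of each compensated group, had their Spt library in another series than their LV and RV libraries. The fits held no term for series, so chamber and series cannot be told apart fully where Spt is compared. Between Spt and LV 5 members were called (14.9% of all genes). Junb (-0.21), Egr1 (-0.31), Fos (-0.31) and Nr4a1 (-0.22) were lower and Jun (0.12) higher in Spt, with edgeR adjusted p from 0.00178 to 0.0403. Between Spt and RV 6 members were called (43.8% of all genes). Fos (-0.59), Nr4a1 (-0.44) and Junb (-0.18) were lower and Jun (0.25), Btg2 (0.18) and Atf3 (0.17) higher in Spt, with edgeR adjusted p from 1.59e-07 to 0.0448. Without the 3 animals these counts were 4 and 6, and with the Spt columns of AOB-F 1 and 2 exchanged they were 5 and 6. Among shams alone, a smaller set of 12 animals, the 3 chamber comparisons called 3, 0 and 2 members. The share of all genes called is not given for these other fits, so their counts are not read as a result about the members.

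Genes outside the 10 were ranked by their mean correlation with the members over the 99 libraries, after removal of chamber means, among 10416 candidates. The 10 most alike were Cyr61 (mean r 0.70), a matricellular growth regulator, Egr2 (0.64), Dusp6 (0.60), Sgk1 (0.58), Klf4 (0.55), Apold1 (0.55), Nfkbiz (0.54), Plk3 (0.54), Zfp36 (0.52) and Spry4 (0.52). Of these, 8 are on a list of 64 other early response genes, all but Sgk1, a hormone-induced kinase, and Nfkbiz, a nuclear regulator of NF-kB. The correlations share libraries and depth and are a description. Condition means were kept, so the high Sham-RF libraries enter them too.

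Of the 64 other early response genes, 61 were in the table and 58 were tested. Summed over chambers, 39 were above and 19 below 0 in Sham-RF against Sham-H, with a median of 0.115. EdgeR called Cyr61 (1.90, SE 0.39, adjusted p = 0.0295) and Dusp6 (0.75, SE 0.15, adjusted p = 0.0224), a phosphatase specific to ERK. In this comparison 0.121% of all genes were called, and the high level of Sham-RF was known when the list was chosen. Cyr61 averaged 148 ± 56.5 CPM in Sham-RF (SD, n = 2, mean of 3 chambers), 39.4 ± 14.7 in Sham-H (n = 7), 66.8 ± 9.52 in Sham-LF (n = 3) and 69.6 ± 27.8 in PAB-F (n = 3). Egr2 (1.81, SE 0.41, adjusted p = 0.0849), Egr3 (1.41, SE 0.49, adjusted p = 0.315) and the chemokine gene Cxcl1 (0.99, SE 0.28, adjusted p = 0.194) had the next largest means over chambers, and Klf10 (-0.40, SE 0.30) and Trib1 (-0.46, SE 0.29) the smallest.

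In PAB-F against Sham-RF, 19 of the 58 were above and 39 below 0, with a median of -0.16 and no call by edgeR (0.00808% of all genes). In AOB-F against Sham-LF, where edgeR called 4.7% of all genes, it called 3 of the 58, all higher. They were Ctgf (1.78, SE 0.39, adjusted p = 0.0106), a matricellular gene of fibrosis, Gadd45a (0.77, SE 0.18, adjusted p = 0.0168), a growth arrest and DNA damage gene, and Hbegf (0.71, SE 0.21, adjusted p = 0.0431), a ligand of the EGF receptor. In PAB-F against Sham-RF their estimates were 0.80 (SE 0.45), 0.24 (SE 0.22) and 0.39 (SE 0.25), and none passed.

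Lists of other programs were read in Sham-RF against Sham-H, and edgeR called none of their genes. Upstream kinases and factors had 9 of 13 estimates above 0 (median 0.045), heat shock genes 2 of 9 (-0.097), hypoxia response genes 3 of 10 (-0.095), glucocorticoid targets 1 of 7 (-0.16) and clock genes 6 of 12 (-0.031). Among the remaining cell type markers, fibroblast genes had 2 of 4 tested above 0 (median -0.25), smooth muscle and pericyte genes 3 of 5 (0.05), erythroid genes 2 of 2 (0.17), mesothelial genes 1 of 3 (-0.73) and adipocyte genes 4 of 4 (0.64), the last at summed levels of 0.130 to 13.4 CPM in both groups. None of these was called.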

How the data were processed

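Whole-heart RNA of 99 libraries (33 animals, 3 chambers) was read from 1 deposited table of raw counts, normalized counts and FPKM per gene. As the study's methods and the submitters' processing notes say, the authors trimmed single-end reads with Trim Galore, aligned them with STAR to Rnor6.0 with UCSC annotation, and made the deposited raw counts with featureCounts, without reads that overlap several genes. The deposited normalized counts, a signal on the scale of counts, are the authors' counts divided by DESeq2 size factors, and the deposited FPKM also divide by gene length. The kit marks strand, but whether strand was used in counting is not given in the sources used here, so antisense or overlapping genes may share reads. Groups and ages follow the labels. The study's paper gives other ages at surgery and at harvest, and other times from surgery to failure. The labels' ages and times also put surgery at different ages in compensated and older animals. No column of per-sample values was left unused (0), and the authors' own comparisons were not used.

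Raw counts were tested with edgeR 4.0.16 (R 4.3.3, limma 3.58.1), TMM scaling, filterByExpr and quasi-likelihood tests, with Benjamini-Hochberg adjustment over all genes tested (11703 in LV, 11624 in Spt, 11734 in RV, 12379 summed, 11924 over 99 libraries). Of the 17337 genes, 2218 had no count. A gene was called at an adjusted p under 0.05. Differences are log2 fold changes, and the SE is the size of the log2 fold change divided by the square root of F. Each chamber was 1 fit of 33 libraries in 7 conditions without covariates, and chambers were compared with animal as a block. Agreement between chambers used log2 CPM (prior count 2) and 100000 two-sided permutations of animals within condition. It was adjusted over all genes in place of the 30 relations planned, since a p adjusted over the list alone is not given for genes chosen with results known. DESeq2 1.42.0, RLE scaling, no filter, a replicate block, library series, other references and leaving out animals were alternatives. Scripts used Python 3.11.15, numpy 2.4.6, scipy 1.17.1 and matplotlib 3.10.9 and were tested on simulated data. Depth limits Fosb most, whose counts started at 8 in a library.

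All 10 members are named. Of 64 other early response genes, the 4 with the largest and the 2 with the smallest mean difference over chambers between Sham-RF and Sham-H are named, and any called in a banding comparison. The 10 non-members most alike needed a mean of at least 1 CPM and a symbol not starting with LOC, RGD or Mir. Lists also covered upstream factors, heat shock, hypoxia, glucocorticoid targets, the circadian clock and 9 sets of cell type markers. The members and lists were chosen with earlier results of these data known, the high level of Sham-RF among them, so that level is not independent evidence. Sequences came from RefSeq (GRCr8) for 7 members.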

Additional observations from a re-analysis of the deposited data

Results flagged for a closer look

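In groups of 4 to 10 libraries, 120 sets of values (a member in a condition and chamber) were examined for 1 library set apart from the rest by more than Dixon's 95% limit. That limit was passed 7 times, where chance gives about 6, always by a high value, and 6 of the 7 belonged to PAB-H animal 7. In LV of that animal Junb was at 71.1 CPM (the other 6 animals 42.1 to 50.1) and Dusp1 at 315 CPM (133 to 192). In its Spt, Egr1 was at 35.2 CPM (8.82 to 14.5), Ier2 at 99.7 CPM (49.6 to 62.0), Dusp1 at 316 CPM (139 to 171) and Btg2 at 125 CPM (75.6 to 92.3). The remaining value was Egr1 in Spt of AOB-F animal 4, at 29.9 CPM against 10.3 to 12.2 in the other 3. No cause of these values was tested. No member was called as different between LV and RV in Sham-RF against Sham-H or in PAB-F against Sham-RF. Other contrasts were not tested between LV and RV. No member was called as different between stages for PAB or AOB.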

How the results depend on the processing

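Single differences (adjusted p) and single correlations between chambers (unadjusted permutation p) were counted together, under alternatives other than leaving out 1 animal. Of these, 575 kept direction and side of the 0.05 threshold, 64 lost the threshold, 9 gained it and 12 reversed. PAB-F against Sham-RF (sum) reversed with Sham-LF as reference for Fosb (0.36), Junb (0.090), Egr1 (0.086), Atf3 (-0.15), Nr4a1 (0.31) and Btg2 (0.19), and with pooled shams for Fosb (0.14) and Atf3 (-0.092). Atf3 also reversed with DESeq2 (-0.00030) and a replicate block (-0.018). Medians of the members moved to 0.034 and -0.24 (PAB-F) and to -0.73 and -0.31 (AOB-F) with the other and the pooled shams, and AOB-F had 1 call with Sham-RF as its reference. Between chambers, Fosb reversed among shams only (RV against LV, 0.065) and Egr1 with no replicate block (Spt against RV, -0.026). The same fits called 3, 0 and 2 members (shams only) and 1 and 0 (no replicate block, RV and Spt against LV). Sham-RF against Sham-H called 2 (sum), 1 (LV) and 1 (RV) with a replicate block, 0 (sum) with these conditions alone and 3 (sum) with DESeq2. The same contrast called 1 (RV) in library series 2 and 2 (RV) in 1 fit of 99 libraries. The share of all genes called is not given for the last 2 fits or the chamber fits before them. Those counts are not read as a result about the members. PAB-F against Sham-RF called 5 (Spt) with these conditions alone (7.1% of all genes). Leaving out 1 animal gave 0 to 3 calls (sum) and 0 to 2 (Spt, with 2 without Sham-H 2) for Sham-RF against Sham-H, with Fosb from -0.37 to 0.32 and Atf3 from -0.12 to 0.11. For PAB-F against Sham-RF it gave Fosb -0.50 to 0.21 and Atf3 -0.22 to 0.11. Members with an unadjusted permutation p under 0.05 numbered 5, 5 and 2 within library series 2 of the LV (LV with RV, LV with Spt, Spt with RV). The medians there were 0.592, 0.533 and 0.351. With means of the LV library series removed the number was 5 for LV with Spt, where the series of the Spt libraries was not removed. The median of Spt with RV was 0.672 with condition means kept. Without Sham-H 2 and PAB-H 7, a choice made after seeing the data, the medians were 0.693, 0.647 and 0.474. Causes were not tested. Series 1 and 3 of LV held too few animals for a permutation within condition. Replicate numbers were not taken as pairs of animals (0 of 12 sets had every pair above 0.1, deviations correlated from -0.32 to 0.79, and 22 of 102 samples were closest to their own number). In LV and RV of the compensated groups, however, the number goes with the library series. Replicates 1 and 2 there, all in series 1, correlated from 0.55 to 0.79, so a replicate block also takes up part of a series difference. The block moved counts of all genes called by over 1.5 times for Sham-RF against Sham-H (sum 15 to 81, LV 3 to 22, RV 0 to 35), Sham-LF against Sham-H (sum 144 to 413, LV 1 to 9, RV 8 to 1), AOB-F against Sham-LF (LV 98 to 2, Spt 27 to 133) and AOB-H against Sham-H (Spt 0 to 2), and no other count of members called. Leaving out the 3 animals with opposite ventricles in LV and RV, chosen after seeing the data, changed no count of members called in the condition comparisons. Counts of members called between chambers did change, as given above.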
